A study of Homo sapiens with 3 samples.

Results

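The 33 genes described here belong to cholesterol and fatty acid synthesis: enzymes of the mevalonate and sterol pathways, the SREBP regulators, and the enzymes that build, lengthen, desaturate and activate fatty acids. They were listed by function, except MID1IP1, which was chosen by its measured log2 signals, namely their large spread between the arrays, so that spread is a description with no test. Of the 33 genes, 29 had a probe set that the platform annotation assigns to that gene alone, among 11963 genes named in this way. FDFT1 (squalene synthase), ACSS2 (acetyl-CoA synthetase) and ACSL3 (an acyl-CoA synthetase) had no such probe set, and FADS1 (a fatty acid desaturase) was listed only on 3 probe sets that also carry MIR1908, so these 4 genes are not analysed here.

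The samples were 3 cultures of HT-29, an established human colon adenocarcinoma line of epithelial origin, which the series describes as biological replicates. Every culture had received 200 U/ml interferon-γ (IFN-γ), a cytokine that signals through JAK kinases and STAT factors, for 24 h. Expression was measured on Affymetrix arrays, with 1 array per culture. No untreated culture was analysed here, so each value is a level in treated cells and none measures a response to IFN-γ. The names in the deposited table were displaced against its values, and an order inferred from the data was used. Every gene value rests on that order. With the names as deposited, 1 of the 29 members and 398 of all 11963 genes were detected.

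Cholesterol is built from acetyl-CoA through mevalonate, isoprenoids, squalene and lanosterol. SREBP transcription factors, held in the endoplasmic reticulum by SCAP and INSIG proteins when sterols are plentiful, are released when sterols fall and switch on the enzymes of this route and of fatty acid synthesis. In epithelial cells the products supply growing membranes, and in the gut cholesterol is also taken up from food and bile.

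The windows shown next are the 250 bases upstream of the annotated start in which a match to a sterol-element-like motif, TCACNCCAC, or to an E-box-like motif, TCACGTGA, was found, because they show the kind of letters through which SREBP factors are known to bind. They are RefSeq sequences of build GRCh38.p14, written 5′ to 3′ on the gene's strand, with the match on either strand in capitals. They lie at chr22:41832855-41833104 on the plus strand for SREBF2, chrX:38801209-38801458 on the plus strand for MID1IP1, chr4:184805554-184805803 on the minus strand for ACSL1, and chr7:155297628-155297877 on the plus strand for INSIG1.
SREBF2: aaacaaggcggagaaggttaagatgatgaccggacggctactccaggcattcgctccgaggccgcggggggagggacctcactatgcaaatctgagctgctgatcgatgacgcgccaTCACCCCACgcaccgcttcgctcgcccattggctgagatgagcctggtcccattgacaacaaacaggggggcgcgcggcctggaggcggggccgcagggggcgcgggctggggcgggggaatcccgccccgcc
MID1IP1: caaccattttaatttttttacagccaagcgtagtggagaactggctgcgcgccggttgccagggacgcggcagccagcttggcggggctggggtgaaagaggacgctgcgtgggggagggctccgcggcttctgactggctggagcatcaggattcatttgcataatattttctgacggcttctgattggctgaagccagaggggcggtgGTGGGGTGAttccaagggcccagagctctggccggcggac
ACSL1: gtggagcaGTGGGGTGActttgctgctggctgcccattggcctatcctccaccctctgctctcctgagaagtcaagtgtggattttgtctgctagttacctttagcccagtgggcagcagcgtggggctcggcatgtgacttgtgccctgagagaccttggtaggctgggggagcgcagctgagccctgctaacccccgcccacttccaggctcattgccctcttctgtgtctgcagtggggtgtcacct
INSIG1: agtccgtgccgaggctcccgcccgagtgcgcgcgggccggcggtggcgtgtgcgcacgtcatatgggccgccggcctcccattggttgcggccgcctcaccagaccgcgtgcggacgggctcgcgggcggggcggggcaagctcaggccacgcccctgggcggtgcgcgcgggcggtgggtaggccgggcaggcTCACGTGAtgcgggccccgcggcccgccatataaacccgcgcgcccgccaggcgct

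The matches began 133 bases upstream of the start in SREBF2, 40 in MID1IP1, 242 in ACSL1 and 56 in INSIG1. Windows were found for 29 of the 33 listed genes, several of them with more than 1 start, which gave 44 windows. TCACNCCAC, searched on both strands, was in the windows of 3 members (6.82% of their windows) and in 0.883% of 35116 RefSeq windows of this length. The palindrome TCACGTGA was in 1 of the members' windows, that of INSIG1 (2.27% of their windows), and in 0.854% of all windows. CCAAT, also searched on both strands, is the box bound by NF-Y, which is known to act beside SREBP. It was in 59.1% of the members' windows and in 32.0% of all windows. In the windows shown it does not overlap the other motifs, and each holds it once, as its reverse complement ATTGG. These letters began 106 bases upstream of the start in SREBF2, 65 in MID1IP1, 215 in ACSL1 and 170 in INSIG1. A match is a run of letters and was not tested as a binding site.

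Nearly all of the measured genes were detected in the treated cells. Each array has a background limit, set at the 95th percentile over 71 genes known for expression in other tissues, which fell at signals of 206.8, 194.6 and 167 for replicates 1 to 3. A gene counts as detected where a one-sided limma test places its mean log2 signal over that limit at an adjusted p under 0.05 (Benjamini-Hochberg, 11963 genes). Of the 29 members 26 were detected, against 43.0% of all genes. Of their 56 probe sets 43 exceeded the limit of all 3 arrays, against 40.3% of all probe sets with 1 gene. Without MID1IP1 the count was 25 of 28. The median distance from the limit was 2.24 log2 units over the members and 0.03 over all genes. The 26 detected members were MID1IP1 and 25 genes described below, and MVD, ELOVL5 and FADS2 did not pass.

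**Figure D1:**
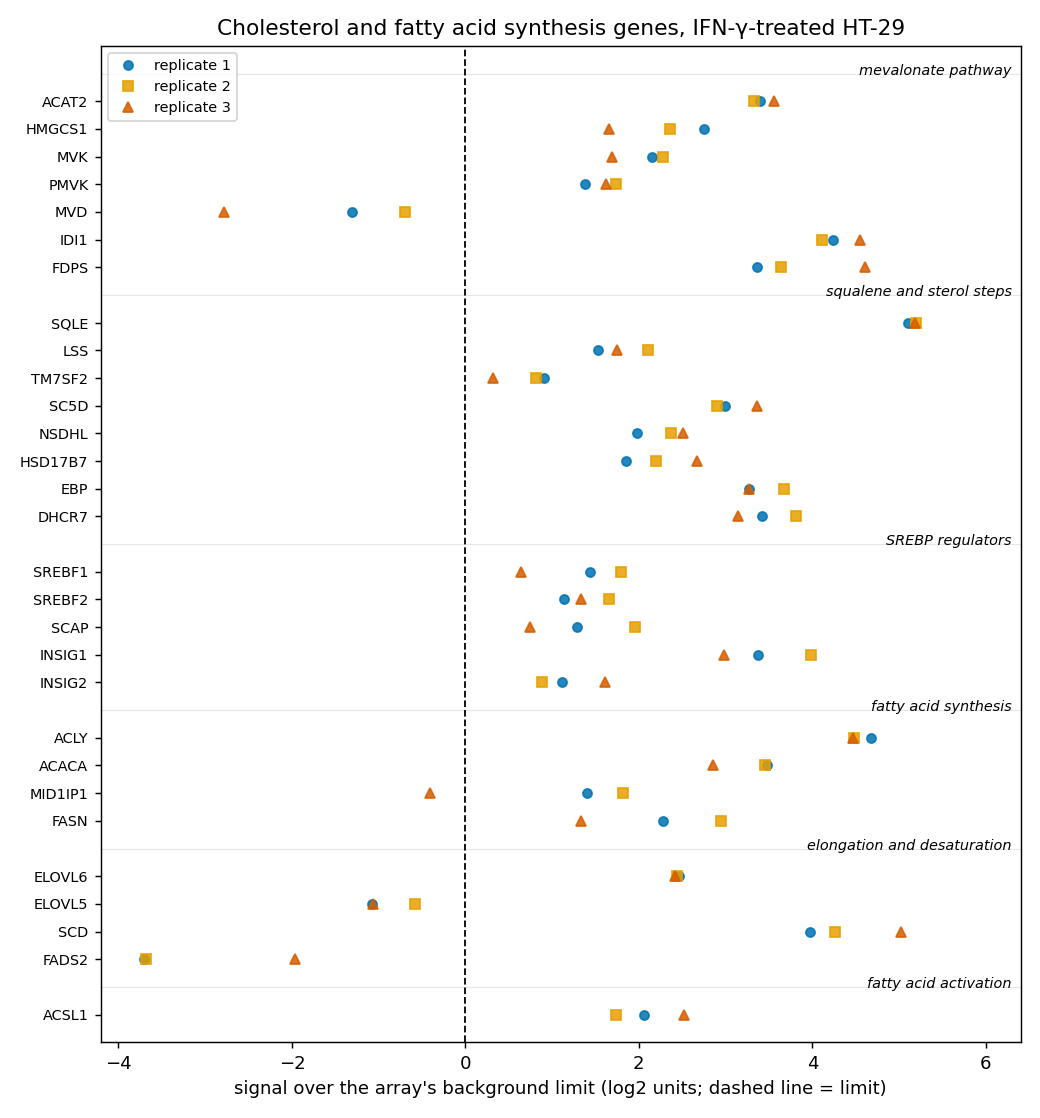
Signal of each measured member over the background limit of its array, in log2 units (x axis), by role (y axis), with a marker for each of the 3 IFN-γ-treated cultures and the limit as a dashed line. MVD, ELOVL5 and FADS2 lie under the limit on all arrays, and MID1IP1 lies above it on 2 of 3.

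In the mevalonate pathway, which makes the isoprenoid units of cholesterol, 6 of 7 genes were detected. ACAT2, the cytosolic thiolase of the first step, had signals of 2179, 1954 and 1973 in replicates 1, 2 and 3. This was the smallest spread of any member, with an SD of 0.09 log2 units, and a level 3.43 log2 units above the limit (limma's adjusted p = 2.48e-09). HMGCS1, the synthase of the next step, had 1395, 997 and 528 in replicates 1, 2 and 3, an SD of 0.71 log2 units, and was 2.26 log2 units above the limit (limma's adjusted p = 7.03e-07). The kinases MVK and PMVK followed at 2.04 and 1.58 log2 units over the limit. With the names displaced uniformly MVK did not pass (0.50 log2 units, limma's adjusted p = 0.0596). Between 2 probe sets of the same member, that displacement gave r = 0.03 over 18 members, against 0.49 under the inferred order.

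MVD, the decarboxylase that turns diphosphomevalonate into isopentenyl diphosphate, was the exception of this group. Its only probe set had signals of 83.4, 119.8 and 24.3 in replicates 1, 2 and 3, under the limit on every array. The enzymes on either side of it were detected, so the gap in the pathway lies at a single probe set. IDI1, the isomerase that follows MVD, had 3899, 3365 and 3915 in replicates 1, 2 and 3 (4.30 log2 units above the limit, limma's adjusted p = 1.38e-09). Its probe set carries the _x_at suffix of cross-hybridising designs, to which related sequences can contribute. FDPS, which makes farnesyl diphosphate, had 2126, 2425 and 4063 in replicates 1, 2 and 3, highest in replicate 3, and was 3.87 log2 units above the limit (limma's adjusted p = 1.12e-08).

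All 8 measured enzymes that turn squalene into cholesterol were detected. SQLE, the squalene epoxidase and a control point of the pathway, had signals of 7122, 7154 and 6074 in replicates 1, 2 and 3, with an SD of 0.13 log2 units, and was 5.16 log2 units above the limit (limma's adjusted p = 1.38e-09). Its other 2 probe sets were also over the limit of each array. LSS, which closes the ring to lanosterol, had 599, 839 and 560.0 in replicates 1, 2 and 3. It was 1.80 log2 units over the limit, but the median over its 3 probe sets was not detected (0.34 log2 units, limma adjusted p = 0.173).

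The later steps showed both narrow and wide spreads. SC5D, a sterol desaturase, had 1641, 1457 and 1719.7 in replicates 1, 2 and 3, with an SD of 0.12 log2 units. It was not detected on its probe set without a suffix (0.17 log2 units, limma's adjusted p = 0.559). NSDHL and HSD17B7, which act in the removal of methyl groups from the sterol ring, were 2.29 and 2.24 log2 units over the limit, and HSD17B7 was read from a probe set with the _x_at suffix. EBP, a sterol isomerase, had 1993, 2486 and 1619 in replicates 1, 2 and 3 (3.41 log2 units above the limit, limma's adjusted p = 3.38e-09). DHCR7, the reductase of the final step, had 2219, 2741 and 1475 in replicates 1, 2 and 3, and was lowest in replicate 3. TM7SF2, a sterol reductase of an earlier step, passed narrowly with 388, 343 and 209 in replicates 1, 2 and 3 (0.68 log2 units above the limit, limma's adjusted p = 0.0118). Without replicate 1 it did not pass (limma adjusted p = 0.152), nor with the limit at the 99th percentile (adjusted p = 0.320).

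All 5 regulators of the pathway were detected, and 4 of them were lowest in replicate 3 on the probe set read for each. Of all detected genes 45.2% were lowest there. SREBF1, the factor best known for fatty acid genes, had signals of 559, 674 and 260.5 in replicates 1, 2 and 3 (1.29 log2 units above the limit, limma's adjusted p = 0.000224). SREBF2, the factor best known for cholesterol genes, had 456, 613 and 419.8 in replicates 1, 2 and 3 (1.38 log2 units above the limit, limma's adjusted p = 2.54e-05). SCAP, their escort to the Golgi, had 503, 753 and 279.7 in replicates 1, 2 and 3. Each of these 3 genes was highest in replicate 2 and lowest in replicate 3.

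The 2 INSIG genes, whose products retain SCAP in the endoplasmic reticulum, differed from each other in the order of arrays. INSIG1, itself a known SREBP target, had 2149.7, 3092 and 1326 in replicates 1, 2 and 3 and was 3.45 log2 units above the limit (limma's adjusted p = 1.09e-08). INSIG2 had 447, 358 and 509.7 in replicates 1, 2 and 3 and was 1.20 log2 units above the limit (limma's adjusted p = 0.000154). INSIG2 was highest in replicate 3 and lowest in replicate 2. The chosen INSIG1 probe set was highest in replicate 2 and lowest in replicate 3, as were SREBF1, SREBF2 and SCAP. Of all 5150 detected genes, 1912 were highest in replicate 2 and 2326 were lowest in replicate 3.

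The 4 measured genes of fatty acid synthesis were detected, and all 4 were lowest in replicate 3 on the probe set read for each. Of all detected genes 45.2% were lowest there. Among the 4 was MID1IP1, which was chosen for its spread over these arrays. ACLY, which makes cytosolic acetyl-CoA from citrate, had signals of 5299, 4353 and 3693 in replicates 1, 2 and 3 (4.54 log2 units above the limit, limma's adjusted p = 1.38e-09). Its other probe sets, both over the limit of every array, were lowest in replicate 1. They had 694, 868 and 868, and 1815.5, 2190 and 1945, in replicates 1, 2 and 3. ACACA, the acetyl-CoA carboxylase of the committed step, had 2308, 2138 and 1214 in replicates 1, 2 and 3 (3.27 log2 units above the limit, limma's adjusted p = 7.29e-09). FASN, the fatty acid synthase, had 1002, 1504 and 419.7 in replicates 1, 2 and 3, with an SD of 0.94 log2 units, and was 2.18 log2 units above the limit (limma's adjusted p = 5.46e-06). A second FASN probe set, with the _x_at suffix, had 11.3, 8.86 and 10.7 in replicates 1, 2 and 3, so the median over both was -0.69 on the log2 scale against the limit and was not detected (limma adjusted p = 1).

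MID1IP1, which helps acetyl-CoA carboxylase to form active filaments, had signals of 546, 688 and 126 in replicates 1, 2 and 3. It lay under the limit of replicate 3 and had an SD of 1.33 log2 units, which ranked 3 among 2502 detected genes read from probe sets without the _x_at or _s_at suffix. It was counted as detected at 0.94 log2 units over the limit, but not without replicate 1, without replicate 2, with quantile normalization, without a variance trend or with the limit at the 99th percentile.

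Elongation and desaturation divided into genes far above the limit and genes under it, with 2 of 4 detected. SCD, the desaturase that makes oleic acid, had signals of 3241, 3732 and 5419 in replicates 1, 2 and 3, and was 4.42 log2 units above the limit (limma's adjusted p = 2.90e-09). All 4 of its probe sets were above the limit on every array. ELOVL6, an elongase of saturated chains, had 1139, 1054 and 894 in replicates 1, 2 and 3 (2.44 log2 units above the limit, limma's adjusted p = 3.37e-08).

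The measured genes of polyunsaturated fatty acids were at background under the inferred order. ELOVL5, an elongase of polyunsaturated chains, had 98.1, 130.4 and 79.9 in replicates 1, 2 and 3, and none of its 3 probe sets was above the limit on every array. FADS2, the desaturase of the first step of that route, had 15.9, 15.2 and 42.8 in replicates 1, 2 and 3, on 1 probe set. With the names displaced uniformly FADS2 was detected (2.35 log2 units, limma's adjusted p = 3.38e-06). Probe sets of the same member had r = 0.03 under that displacement and 0.49 under the inferred order. ACSL1, which activates long-chain fatty acids by joining them to coenzyme A, was detected with 864, 649.6 and 957 in replicates 1, 2 and 3 (2.11 log2 units above the limit, limma's adjusted p = 5.18e-07).

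Other genes of lipid metabolism were counted in the same fit. Of 65 measured genes of 4 further lists, 44 were detected, against 43.0% of all genes. Of 10 further sterol synthesis genes 8 passed, with GGPS1 (geranylgeranyl diphosphate synthase) at 1634, 1461 and 1786, MSMO1 (a sterol methyl oxidase) at 1228, 1140.3 and 2025, and COQ2 (ubiquinone synthesis) at 942, 1020.4 and 1045 in replicates 1, 2 and 3. Sterol uptake, transport and storage gave 8 of 16. NPC1 and NPC2, which export cholesterol from lysosomes, had means 1.24 and 3.15 log2 units over the limit, and LIPA, the lysosomal lipase, lay 2.47 over it. GGPS1 did not pass without suffixed probe sets (0.43 log2 units). NPC1 was not above the limit as the median over its probe sets (-1.11 log2 units).

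The list of further fatty acid and lipid synthesis genes gave 15 of 21. ACACB, the mitochondrial acetyl-CoA carboxylase, had 1656, 1637 and 947 in replicates 1, 2 and 3, and ME1, an NADPH-producing malic enzyme, had 1547, 1119 and 1533. SLC25A1, the citrate carrier that supplies ACLY, had 1979, 3244 and 624 in replicates 1, 2 and 3, highest in replicate 2 and lowest in replicate 3. ACACB was not detected as the median over its probe sets (-0.29 log2 units). Fatty acid oxidation gave 13 of 18, among them CPT1A, which admits acyl chains to mitochondria, at 2.32 log2 units over the limit, and SLC25A20, the carnitine carrier, at 1.13. CPT1A did not pass as the median over its probe sets (0.25 log2 units). CPT2, the partner of CPT1A, was not detected, with 127.5, 131.6 and 151 in replicates 1, 2 and 3.

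Replicate 3 was most often the lowest array for the members. The deviation of an array is the log2 signal of a gene there minus its mean over the 3 arrays. Replicate 3 was the lowest array for 17 of the 26 detected members (16 of 25 without MID1IP1), against 45.2% of all detected genes, and the highest for 7, against 33.7%. The median deviation in replicate 3 was -0.22 over the detected members and -0.05 over all detected genes. When the probe sets of each gene were summarised by their median, the members' value was -0.07. In replicate 2 the medians were 0.16 over the detected members and 0.01 over all detected genes, and the members' value was 0.07 by the median over probe sets and 0.04 without suffixed probe sets. These are descriptions of 3 arrays of the same treatment, and no test between arrays was possible. In bulk RNA, fewer cells with a transcript and less of it per cell cannot be told apart. Whether the low values in replicate 3 come from the cells or from a difference between the arrays was not tested. The highest signal on an array was smallest in replicate 1 and largest in replicate 3. The 12 housekeeping genes had a median deviation of 0.30 in replicate 3.

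**Figure D2:**
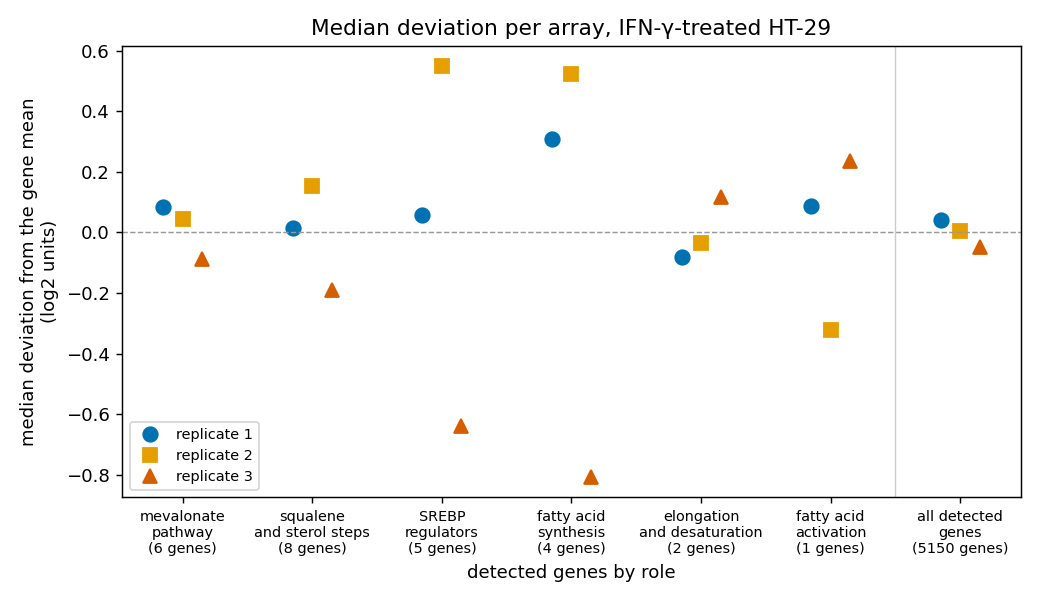
Median deviation of detected genes from their own mean on each array, in log2 units (y axis), for the members by role and for all detected genes (x axis), with a marker for each replicate. In replicate 3 the regulators lie at -0.64, the fatty acid synthesis genes at -0.81 with MID1IP1 (-0.58 without it, not plotted), and all detected genes at -0.05. The regulators' value is that of the probe set read for INSIG1, and another INSIG1 probe set deviated by 0.37 there.

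By role, the median deviation in replicate 3 was -0.64 over the 5 regulators and -0.58 over the fatty acid synthesis genes ACLY, ACACA and FASN. The regulators' median is the value of the probe set read for INSIG1, and another INSIG1 probe set deviated by 0.37 in replicate 3. With MID1IP1, which was chosen for its spread over these arrays, the fatty acid synthesis genes had -0.81. The median was -0.09 over the 6 detected mevalonate genes and -0.19 over the 8 squalene and sterol genes. SCD and FDPS were high there on the probe sets read, with deviations of 0.43 and 0.56 in replicate 3. The other SCD probe sets deviated by -0.13, 0.16 and 0.02 in replicate 3. Among the other lists the median was -0.19 for sterol uptake, transport and storage, where 6 of 8 detected genes were lowest in replicate 3. It was -0.14 for further fatty acid and lipid synthesis genes (8 of 15 lowest there). Of all detected genes 45.2% were lowest there. The median was -0.003 for further sterol synthesis genes, 0.04 for fatty acid oxidation and 0.30 for 12 housekeeping genes.

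The median SD between arrays was 0.31 log2 units over the detected members other than MID1IP1, and 0.29 over all 5150 detected genes, whose quartiles were 0.18 and 0.43. Without replicate 3 the members' median SD was 0.19. Next to MID1IP1, the detected members with the largest spread were FASN (0.94), SREBF1 (0.73), SCAP (0.72), HMGCS1 (0.71) and INSIG1 (0.61). Each of these 5 genes was lowest in replicate 3, as were 45.2% of all detected genes. Read as the median over its probe sets, the SD was 0.17 for HMGCS1 and 0.06 for INSIG1, so their place depends on the probe set that is read. For FASN that SD was 0.42, but the second FASN probe set lay under the limit on every array. MVD and FADS2, at background, had SDs of 1.21 and 0.85. ACAT2, SC5D, IDI1 and SQLE lay at the other end, with SDs from 0.09 to 0.13.

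**Figure D3:**
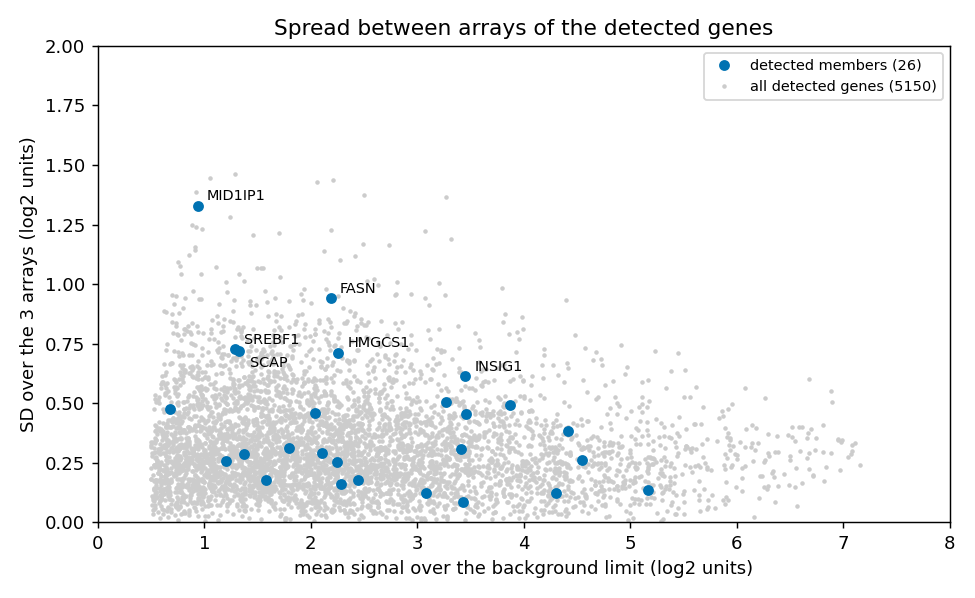
SD of log2 signal over the 3 arrays (y axis) against mean signal over the background limit in log2 units (x axis), for 26 detected members and all 5150 detected genes. MID1IP1 stands highest among the members at 1.33, followed by FASN at 0.94, and names mark the members with an SD above 0.55.

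Probe sets of the same gene disagreed about replicate 3. HMGCS1 showed this most plainly: the probe set given above was at 528 in replicate 3, its lowest, while the second HMGCS1 probe set had 615, 564 and 1109.9 in replicates 1, 2 and 3. INSIG1 had a second probe set at 1158, 1152 and 597, low in replicate 3 like the first, and another at 1351, 1433 and 2042, high in replicate 3. EBP had a second probe set at 698, 879.9 and 1249.7 and another at 419.7, 332 and 196 in replicates 1, 2 and 3. For these 3 genes the direction of replicate 3 depends on the probe set that is read.

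Of 12 members with at least 2 probe sets over the limit of every array, these 3 had deviations in replicate 3 beyond 0.25 log2 units on both sides of 0. The share among all 1562 such genes was 4.29%. The threshold was chosen after the values were seen, and at 0.35 the same 3 members remained, against 1.28% of all such genes. At 0.15 ACSL1 joined them, which gave 4 members, against 10.9% of all such genes. SQLE, ACLY and SCD also had such probe sets on both sides of 0, but not beyond 0.15 on both. SREBF2 differed in another way: its second probe set had 464, 652 and 139 in replicates 1, 2 and 3, under the limit in replicate 3, where the first had 419.8. DHCR7, MVK and ACACA had all such probe sets below their mean in replicate 3, and IDI1 and NSDHL had all of theirs above it.

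**Figure D4:**
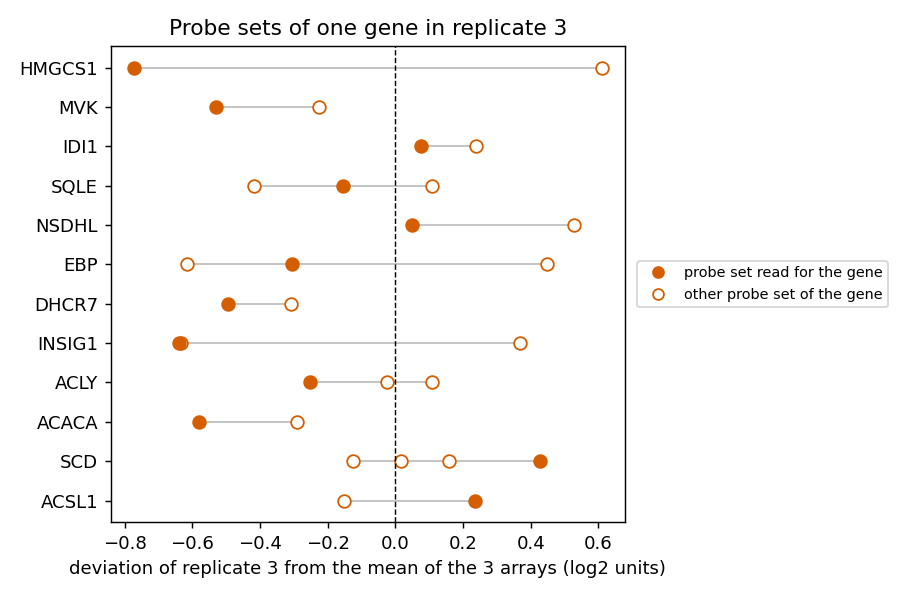
Deviation of replicate 3 from the mean of the 3 arrays in log2 units (x axis) for each probe set over the limit of every array, for 12 members with at least 2 such probe sets (y axis). Filled points are the probe sets read for the gene, and in HMGCS1, EBP and INSIG1 the points lie beyond 0.25 on both sides of 0.

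The base composition of the upstream window was set beside the deviation in replicate 3. Over 4382 detected genes with a window, the deviation in replicate 3 and the GC share of the window had r = -0.16 and rho = -0.15, a description across genes that share 3 arrays and are not independent of one another. The median deviation was 0.01 in the fifth of genes with the lowest GC and -0.16 in the fifth with the highest. The 23 detected members with a window had a median GC share of 66.8%, against 65.2% over all detected genes with one. The part of base composition in the members' low values was not tested.

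Markers of the cell line and of other cells were read on the same arrays. Of 10 markers of colon epithelium 8 were detected, including EPCAM, CDH1 and KRT8, while CDH17 and GPA33 were not. One marker each passed of 10 hepatocyte, 8 adipocyte, 8 fibroblast and 6 leukocyte markers: APOH, PPARG, COL1A1 and LYZ, of which PPARG and LYZ are also known from intestinal epithelium. ALB, a defining hepatocyte marker, had 16.2, 24.0 and 68.2 in replicates 1, 2 and 3, and ADIPOQ, a defining adipocyte marker, had 31.1, 42.1 and 62.2, all under the limit. PTPRC, which defines leukocytes, had 32.6, 4.77 and 10.9. APOA2, LEP, PLIN1, COL1A2, COL3A1, CD3D and CD3E were not detected either, and the housekeeping genes ACTB, GAPDH and PPIA were. Median signals over all probe sets were 137, 144 and 141 for replicates 1 to 3, and 3 arrays limit how precisely any level is known.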

How the data were processed

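The authors deposited one linear intensity for every probe set. The tools were MAS5 and, in version 1.1, Affymetrix Expression Console, per the submitters' processing notes. Each array had a trimmed mean (2% off each end) of 500.3, so the arrays had been scaled before deposit. The scaling target and presence calls are not given in the sources used here.

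Names and values were displaced in the table. For 4292 genes that are no member, the mean log2 signals of the first 2 probe sets had r = 0.19 under the deposited order. An inferred order was used: 15 unnamed values, the opening block of long probe set numbers, the short numbers, then the others in file order. It gave r = 0.60, and r = 0.49 over 18 members (0.36 as deposited). The best of 3001 uniform displacements, 487 rows, gave 0.50 over 4062 genes that are no member and 0.03 over the 18 members. A further 448 genes that are no member had 1 probe set inside and 1 outside the first 2307 of those others. Over these genes r was 0.49 under the inferred order and 0.02 under the uniform displacement. The 62 unnamed values were left out. Every gene value rests on this order, which was chosen with the data in view.

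Values were used on the log2 scale with nothing added. Each gene was read from the brightest probe set carrying only its symbol. The differences from the array's limit were fitted in limma 3.58.1 under R 4.3.3 as a mean with a trended variance, and the limit itself was taken to have no error. The limit list held 84 genes, of which 71 were measured and 1 (SFTPC) was detected. The test was tried on simulated data. The alternatives changed the limit, the normalization, the pseudocount, the probe set rule, the order of names and the arrays. The members, lists, motifs and tests were chosen with earlier results of these data known. All members are named, and of each further list the first 3 measured genes in a fixed order. Other genes are named where a count of 5 or fewer rests on them.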

Additional observations from a re-analysis of the deposited data

How the results depend on the processing

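Most results rest on the inferred order of the names. Under the names as deposited 1 of 29 members, 3 of 65 further pathway genes and 398 of all 11963 genes were detected. The background limit also lay higher under those names, at signals of 3782, 3562 and 2701 for replicates 1 to 3. The log2 distance from the limit turned negative there for ACAT2 (-3.20), HMGCS1 (-1.16), MVK (-2.37), PMVK (-2.78), IDI1 (-1.12), FDPS (-2.73), SQLE (-2.33), TM7SF2 (-9.23), SC5D (-1.98), NSDHL (-7.26), HSD17B7 (-5.91), EBP (-2.65), SREBF1 (-6.23), SREBF2 (-0.56), SCAP (-5.80), INSIG1 (-0.43), INSIG2 (-0.40), ACACA (-0.95), MID1IP1 (-7.49), FASN (-0.81), ELOVL6 (-3.79), SCD (-3.79), ACSL1 (-0.019), and among the further genes for GGPS1 (-0.68), MSMO1 (-0.21), COQ2 (-3.28), NPC1 (-3.38), NPC2 (-9.59), LIPA (-0.23), ME1 (-2.15), SLC25A1 (-3.16), CPT1A (-2.16), SLC25A20 (-6.16). The uniform displacement gave r = 0.03 between probe sets of the same member, against 0.49 under the inferred order. With that displacement FADS2 lay at 2.35 and ACACB at -2.94, and MVK (0.50) and GGPS1 (0.27) did not pass. SREBF1, LSS, FDPS, ACLY and NPC1 moved to 5.30, 4.79, 5.43, 3.52 and 4.74 there. With genes as the median over their probe sets FASN, NPC1 and ACACB lay at -0.69, -1.11 and -0.29. Without suffixed probe sets 16 of 18 members and 3140 of 8369 genes were detected, where fewer genes can be read. Under the remaining alternatives 24 to 26 members were detected, and without replicate 3 they were the same 26. Leaving out 1 replicate gave 24 to 26 members, 42 to 44 further genes and 4827 to 5113 genes in all. The median SD of members was 0.19 to 0.39 with 1 replicate left out. No paired analysis was possible because all arrays belong to 1 group. Dim probe sets limit what can be read of TM7SF2, which lay near the limit of 167 to 206.8, and of MVD and ELOVL5, which lay under it on every array. The cause of each change was not tested.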
